A study of Mus musculus with 48 samples.

Results

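Classical monocytes marked by Ly6c2 and Ccr2 were examined in single-cell RNA sequencing of mouse GL261 glioblastomas grown from cells carrying an shRNA against P-selectin (shSELP) or a negative control shRNA (shNC). GL261 is a murine glioma line, and both kinds of cells were implanted into the striatum of young male C57BL/6 mice, so the shRNA was carried by the tumor cells and not by the monocytes. The 2 experiments were a mix of CD11b-positive, other CD45-positive and remaining cells taken at day 16 by the labels, with 2 libraries of shNC and 2 of shSELP, and CD11b-positive cells alone at day 21, with 1 library of each. The study's methods give a single day for both preparations, so the days stated here rest on the labels. Brains were pooled within a group, and it was not stated if each library had its own pool, so p-values measured the spread between libraries, which may be technical. The question was how blood-derived monocytes in these tumors differ when the glioma cells carry the shRNA against P-selectin. Of 14261 cells with at least 500 detected genes, 462 were monocytes, 199 in the mix and 263 in the CD11b-positive libraries.

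Classical monocytes leave the bone marrow through the chemokine receptor CCR2 and enter inflamed or tumor-bearing brain, where they mature into macrophages. During that maturation they lose Ly6c2 and gain genes of mature macrophages such as the complement C1q chains and apolipoprotein E. P-selectin is an adhesion receptor of platelets and endothelium whose main ligand, PSGL-1, is carried by leukocytes including monocytes.

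The monocytes were chosen by expression. A cell was kept with at least 5 UMIs (unique molecular identifiers, each counting 1 captured transcript) of Lyz2, at least 5 UMIs of Ly6c2 per 10000 UMIs of the cell and at least 1 UMI of Ccr2. It also had at most 1 UMI of Nos2 and Inhba together, at most 1 of Mki67 and Top2a together, and none of Retnlg, P2ry12, Tmem119 or the Cd3 genes, which mark neutrophils, microglia and T cells. The levels of these genes were therefore selected on and are given only as a description. The median Ly6c2 level was 18.7, 22.1, 26.9 and 21.3 per 10000 in shNC 1, shNC 2, shSELP 1 and shSELP 2 of the mix. Just inside the Ly6c2 limit, at 5 to 6 per 10000, lay 4 and 7 monocytes of the shNC libraries of the mix and 0 of either shSELP library. Just outside it, at 4 to 5 per 10000, lay 6, 4, 1 and 3 cells of shNC 1, shNC 2, shSELP 1 and shSELP 2. A lone UMI of Ccr2 carried 14, 33, 13 and 7 of the monocytes of these 4 libraries, and 19, 54, 21 and 29 further cells failed on Ccr2 alone. The near edge of the Ly6c2 limit was thus occupied in the shNC libraries of the mix and empty in the shSELP libraries. In the CD11b-positive libraries, 7 of 115 monocytes of shNC and 8 of 148 of shSELP lay just inside the Ly6c2 limit and 10 and 10 cells just outside. A lone UMI of Ccr2 carried 62 and 77 of those monocytes, and 181 and 184 further cells failed on Ccr2 alone. At 5 to 9 UMIs of Lyz2 lay 8 monocytes of shNC and 30 of shSELP there, with medians of 42 and 19 Lyz2 UMIs.

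Depth differed between libraries. The monocytes of the mix summed to 278951, 602746, 222514 and 367842 UMIs in shNC 1, shNC 2, shSELP 1 and shSELP 2, and those of the CD11b-positive libraries to 364444 in shNC and 366441 in shSELP. The median monocyte held 5824, 6752, 6029 and 9772 UMIs in the 4 libraries of the mix, and 2953 and 2210.5 in the CD11b-positive ones. Barcodes shared between libraries numbered 0 to 3 a pair, and none was a monocyte. Selp, the targeted gene, had 0, 0, 1 and 2 UMIs in the monocytes of the mix and 3 and 0 in the CD11b-positive monocytes. Over all cells it had 17, 25, 21 and 21 UMIs in the mix and 4 and 4 in the CD11b-positive libraries, so its counts did not check the shRNA labels. Of the 8 entries of the CD11b-positive shSELP library 7 carried a description naming the negative control, and 1 shNC entry a description with another number, so directions in that experiment rest on the titles, source names and genotypes.

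The label was checked on Plac8, Chil3 and Ifitm6, which the rule did not use. Plac8, a small cysteine-rich protein of monocytes and granulocytes, was at 4657, 4267, 6449 and 5587 CPM (counts per 1000000 summed monocyte UMIs) in shNC 1, shNC 2, shSELP 1 and shSELP 2 of the mix. Chil3, a chitinase-like secreted protein, was at 1305, 1029, 1775 and 1136 CPM. Ifitm6, of the interferon-induced transmembrane family, was at 255, 161, 175 and 207 CPM. All 3 were present in every library, and none was called between the groups in edgeR. With each cell thinned to 2000 UMIs, Chil3 was seen in 48.8, 35.4, 54.3 and 45.9% of monocytes and in 0.255, 0.237, 0 and 0% of T cells, which lack it. That left 41, 82, 35 and 37 monocytes, and before thinning 28 of 42, 36 of 83, 23 of 37 and 20 of 37 monocytes held a Chil3 UMI. Ifitm6 was seen in 31.7, 18.3, 31.4 and 16.2% of the thinned monocytes, and before thinning in 18, 27, 14 and 16 monocytes. Most monocytes thus held no Ifitm6 UMI at this depth. Levels of these markers in other myeloid cells are not given here. Of T cells, thinned to the same depth, 48.5, 47.9, 36.5 and 33.3% held a Plac8 UMI, so Plac8 marked more than the monocytes. Chil3 and the Ifitm genes have close relatives, and Ly6c2 is nearly identical to Ly6c1, so reads may be split between copies and their counts are uncertain.

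Monocytes made up 1.92, 3.81, 1.69 and 1.70% of cells in shNC 1, shNC 2, shSELP 1 and shSELP 2 of the mix, with exact 95% binomial intervals of 1.39 to 2.59, 3.04 to 4.70, 1.19 to 2.32 and 1.20 to 2.34%. The shSELP mean was lower by a difference of -1.17 percentage points, with exact two-sided permutation p = 0.333, the smallest that 2 against 2 libraries allow. The difference was -0.229 points without shNC 2 and -2.11 without shNC 1, and it was -0.551 with at least 2 UMIs of Ccr2 and -0.766 with cells thinned to 2000 UMIs. Of the cells that passed the limits on Lyz2, Retnlg, P2ry12, Tmem119, the Cd3 genes, Mki67 and Top2a, monocytes were 9.81, 17.2, 13.7 and 8.67%, and the groups overlapped with exact two-sided permutation p = 0.667. In the CD11b-positive libraries the shares were 4.21% in shNC (3.49 to 5.03) and 5.28% in shSELP (4.48 to 6.17), with 1 library each and no test. With every cell thinned to 2000 UMIs before the rule was applied, the CD11b-positive difference turned from 1.07 to -0.727 points. It was 0.591 points with at least 2 UMIs of Ccr2. Among the cells that passed the limits on Lyz2 and the other genes listed above, the shares were 9.11 and 9.60%. That difference was 0.491 points. Fractions were combined in set amounts in the mix, so its shares describe the mixture, and all intervals cover counting error only.

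In the mix, 5 genes of mature macrophages fell and the chemokine Ccl5 rose in monocytes of shSELP tumors. Of 3791 genes tested with edgeR's quasi-likelihood test, 10 passed a Benjamini-Hochberg adjusted p of 0.05, or 0.264%, with 2 higher in shSELP (0.0528%) and 8 lower (0.211%). At an unadjusted p under 0.05 there were 263 genes. The libraries of the groups did not overlap in 1455 of the 3791 genes (38.4%), and genes picked for a small p in the same 4 libraries separate by that choice, so separation is no further support for them. DESeq2 called 3 of the 10, Spp1, Apoe and C1qc, and had 68 genes at an unadjusted p under 0.05. The edgeR count was 0 without shNC 1, with 192 genes at an unadjusted p under 0.05, and 23, 20 and 39 without shNC 2, shSELP 1 and shSELP 2. It was 24 with no filter on low counts. It was also 0 with Ly6c2 at 10 per 10000 or more (164 at an unadjusted p under 0.05), with at least 2 UMIs of Ccr2 (217) and with cells thinned to 2000 UMIs (61, among 918 genes tested), settings in which DESeq2 was not run. The thinned setting also changed which cells passed the rule, and the cause of the lost calls was not tested.

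Spp1, which encodes the secreted adhesion protein osteopontin, was at 290, 264, 31.5 and 84.3 CPM in the monocytes of shNC 1, shNC 2, shSELP 1 and shSELP 2. It fell by 2.14 ± 0.295 (SE, n = 2 and 2 libraries) on the log2 scale, with a Benjamini-Hochberg adjusted p of 0.00158 in edgeR, 0.120 without shNC 1, and a change of -3.14 without shSELP 2. It was -4.21 with thinned cells and -1.18 with at least 2 UMIs of Ccr2, called in neither. The UMIs came from few cells: 11, 14, 7 and 6 monocytes held any, and the highest cell gave 43.2% of those in shNC 1 and 71.0% of those in shSELP 2. Over all cells of the same libraries Spp1 was at 1071, 768, 296 and 462 CPM, and in T cells at 82.5, 109, 38.5 and 40.4 CPM. Both were also lower in shSELP, and their part in the monocyte values was not tested.

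Apoe, the lipid carrier that maturing macrophages make in quantity, was at 9794, 7600, 4876 and 4225 CPM. It fell by 0.94 ± 0.156 on the log2 scale with an edgeR Benjamini-Hochberg adjusted p of 0.00720, and 0.136 without shNC 1. Over all cells it stood at 12150, 9673, 14230 and 17340 CPM, so the monocytes went the other way from the libraries as a whole. The C1q chains, which build the recognition part of the classical complement pathway, moved with it. C1qc was at 1172, 1339, 395 and 680 CPM and fell by 1.21 ± 0.194 (edgeR, Benjamini-Hochberg adjusted p = 0.00719, and 0.249 without shNC 1). C1qb was at 1882, 2032, 760 and 1272 CPM and fell by 0.94 ± 0.184 (edgeR, Benjamini-Hochberg adjusted p = 0.0230, with 0.600 without shNC 1 and 0.133 without shSELP 1). C1qa, at 1588, 1448, 719 and 1115 CPM, had a log2 change of -0.72 ± 0.176 and missed the threshold, with an edgeR Benjamini-Hochberg adjusted p of 0.126. Over all cells C1qa was at 3577, 3384, 3978 and 3667 CPM and C1qb at 2858, 2740, 3259 and 3217 CPM. C1qc was at 2290, 2281, 2407 and 2352 CPM there. Each was slightly higher in both shSELP libraries, the other way from the monocytes. In T cells C1qc was at 26.9, 20.8, 44.9 and 26.7 CPM and Apoe at 146, 83.7, 166 and 120 CPM, and there the groups overlapped. With Ly6c2 at 10 per 10000 or more, the log2 changes of Apoe, C1qc and C1qb were -0.67, -0.81 and -0.65, and with at least 2 UMIs of Ccr2 -1.08, -1.41 and -1.03, and none was called in either. DESeq2 called Apoe and C1qc, and C1qb had an adjusted p of 0.0656 there (Benjamini-Hochberg, beside 0.0230 in edgeR). With cells thinned to 2000 UMIs before the rule was applied they were -0.32, -0.29 and -0.36, and none was called. That setting also changed which cells passed, to 30, 52, 27 and 23 monocytes. When the monocytes chosen at full depth were thinned instead, the mean was 20.4, 13.9, 10.3 and 8.14 UMIs a cell for Apoe and 2.95, 3.65, 1.46 and 2.19 for C1qb.

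Cd72, a lectin-like surface receptor of B cells and macrophages, was at 154, 197, 49.4 and 84.3 CPM. It fell by 1.37 ± 0.284 (edgeR, Benjamini-Hochberg adjusted p = 0.0404), and its adjusted p was 0.351, 0.262 and 0.0759 without shNC 1, shNC 2 and shSELP 1. Rgs1, a regulator of G-protein signaling downstream of chemokine receptors, was at 556, 863, 310 and 364 CPM. It fell by 1.10 ± 0.207 (edgeR, Benjamini-Hochberg adjusted p = 0.0195, with 0.0686 without shNC 1), and its change was -0.71 with an adjusted p of 0.366 without shNC 2. Ptgs2, the inducible cyclooxygenase of prostaglandin synthesis, was at 728, 790, 436 and 451 CPM. It fell by 0.79 ± 0.168 (edgeR, Benjamini-Hochberg adjusted p = 0.0487), and its adjusted p was 0.569, 0.274 and 0.0743 without shNC 1, shNC 2 and shSELP 1. Areg, an epidermal growth factor receptor ligand, was at 125, 71.3, 13.5 and 16.3 CPM. Its fall of 2.59 ± 0.466 (edgeR, Benjamini-Hochberg adjusted p = 0.0129, with 0.273 without shNC 1) rested on 2 and 3 cells with a UMI in shNC 1 and shNC 2, whose highest cell held 62.9% and 60.5% of the UMIs. DESeq2 called none of these 4 genes. Over all cells Cd72 was at 283, 232, 135 and 144 CPM and Rgs1 at 1036, 823, 540 and 746, also lower in both shSELP libraries. Ptgs2, at 709, 526, 576 and 855 CPM, and Areg, at 67.7, 55.0, 70.1 and 88.9, were not lower over all cells. The part of these library-wide levels was not tested. Changes moved by over 1.5 times to -0.63 for Cd72 with Ly6c2 at 10 per 10000 or more, -0.46 for Ptgs2 with at least 2 UMIs of Ccr2, and -0.36 for Rgs1 and -0.31 for Ptgs2 with thinned cells.

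Ccl5, a chemokine that draws T cells and monocytes, was at 1190, 2165, 5905 and 3208 CPM and rose by 1.41 ± 0.244 on the log2 scale (edgeR, Benjamini-Hochberg adjusted p = 0.0102). Its adjusted p was 0.841 without shNC 1, and its change was 0.90 without shSELP 1. T cells, a source of Ccl5, held it at 3510, 3241, 7106 and 3516 CPM in the same libraries, highest in shSELP 1 as in the monocytes. Over all cells it was at 1909, 1747, 3338 and 3942 CPM, also higher in both shSELP libraries, and the part of free RNA was not tested. Ttr, the thyroid hormone carrier of the choroid plexus, was at 43.0, 76.3, 1461 and 97.9 CPM and rose by 3.52 ± 0.687 (edgeR, Benjamini-Hochberg adjusted p = 0.0230, with 0.915 without shNC 1). Without shSELP 1 its change was 0.58 with an adjusted p of 0.798. That library held 8813 CPM of Ttr over all cells against 154, 447 and 801 in shNC 1, shNC 2 and shSELP 2, and 1765 CPM in T cells against 21.0, 68.8 and 81.1. The Ttr call rested on shSELP 1, where the transcript was high in T cells as well. DESeq2 called neither Ccl5 nor Ttr.

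**Figure D1:**
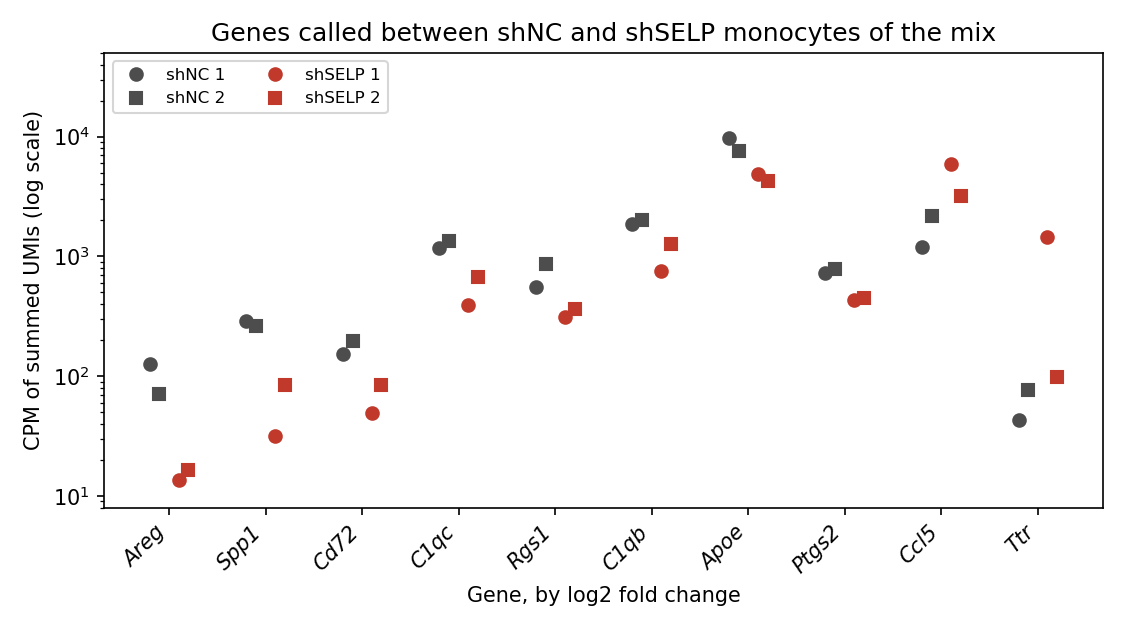
CPM of summed monocyte UMIs on a log scale for the 10 genes called in the mix, in order of log2 fold change, with a point for each of the 2 shNC (grey) and 2 shSELP (red) libraries. Ttr stands high in shSELP 1 alone, at 1461 CPM.

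Further genes stood higher in both shSELP libraries without passing the test. With only 2 genes called higher, those with the smallest p at 50 CPM or more were also examined. Ass1, an enzyme of arginine synthesis, was at 276, 370, 598 and 601 CPM, with a log2 change of 0.85 and an edgeR Benjamini-Hochberg adjusted p of 0.0609. Ifi27l2a, an interferon-induced gene, was at 2889, 3182, 4849 and 4187 CPM, with a log2 change of 0.56 and an edgeR Benjamini-Hochberg adjusted p of 0.168. S100a4, a calcium-binding protein of motile myeloid cells, was at 635, 494, 706 and 1049 CPM, with a log2 change of 0.66 and an edgeR Benjamini-Hochberg adjusted p of 0.207. Pik3r1, Cxcl3, Vamp3 and Aplp2 had log2 changes of 1.14, 1.82, 1.13 and 1.04, and Ifitm1 was at 136, 277, 539 and 353 CPM, and none was called. Cxcl3 rested on 7, 7, 10 and 8 monocytes with a UMI, and the highest cell gave 60.0, 22.2, 42.6 and 38.5% of its UMIs. In CD11b-positive monocytes 5 of the 8 had at least 50 UMIs, and 2 of these lay on the same side of 1 as in the mix, beside 53.1% of 1913 genes tested in both. Ifi27l2a had a ratio of shSELP to shNC of 0.791 (95% counting interval 0.728 to 0.859) and S100a4 0.504 (0.443 to 0.574), both lower. Ifitm1 stood higher at 2.21 (1.38 to 3.62), and the intervals of Ass1, at 0.915 (0.668 to 1.25), and Aplp2, at 1.21 (0.672 to 2.20), included 1. Pik3r1 had 24 UMIs in shNC and 22 in shSELP, Vamp3 28 and 11, and Cxcl3, a neutrophil-attracting chemokine, 40 and 1. All were under the limit of 50 UMIs and were left out of the 5. Cxcl3 was still lower in shSELP, the other way from the mix, at a ratio of 0.0249 (0.000614 to 0.147). Vamp3 also had fewer UMIs in shSELP.

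The gene lists were chosen with earlier results of these data known, so their contrasts with all genes, here and below, are descriptions only. Of 21 lists of genes for monocyte functions, 3 held a called gene. Of 27 macrophage maturation genes 22 were tested and 5 fell (Spp1, Cd72, C1qc, C1qb and Apoe), against 0.211% of all genes, and their median log2 change was -0.64 beside -0.0038 over all genes. Their summed level was 20410, 18480, 11770 and 12570 CPM in shNC 1, shNC 2, shSELP 1 and shSELP 2, of which Apoe was the most abundant. Without shNC 1 no member was called in edgeR, nor was any other gene. DESeq2, with all libraries, called Spp1, C1qc and Apoe of them. Of 14 chemokines tested Ccl5 alone was called, as higher, against 0.0528% of all genes, with a median of -0.045. Of 26 genes of interleukin-1, TNF and NF-kB signaling Ptgs2 alone was called, as lower, against 0.211% of all genes, with a median of -0.042.

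The other 18 lists held no called gene in edgeR or DESeq2. Of their 262 genes tested, 33 had an unadjusted p under 0.05 in edgeR and 13 in DESeq2, beside 263 and 68 of all 3791 genes. Their medians lay between -0.47, for 5 non-classical monocyte genes, and 0.40, for 11 GTPases induced by interferon gamma. Of 20 classical monocyte genes tested, 15 had a log2 change above 0, with a median of 0.19 and summed levels of 23200, 23400, 27500 and 26160 CPM. The 16 tested genes of adhesion and of selectin ligands had a median of 0.063. Among them Cd47, a receptor that restrains phagocytosis, was the most abundant at 591 to 840 CPM, and Cd44, the hyaluronan receptor, lay at 348 to 498 CPM. Of 50 type I interferon-stimulated genes 35 were above 0, with a median of 0.13. MHC class II genes summed to 28420, 31700, 23090 and 35530 CPM, with a median of -0.026 over 7 tested, and the range within shSELP covered both shNC libraries. Genes of MHC class I and peptide loading (20 tested), receptors for chemokines and growth factors (22), lineage regulators (14), glycolysis and hypoxia (25), tumor macrophage and matrix (17), cytokine signal regulators (14), AP-1 and immediate early genes (18), S100 and annexins (11), heat-shock chaperones (8), C-type lectins (9), iron handling (7) and type 2 dendritic cells (3) had medians of -0.13, -0.020, 0.13, 0.031, 0.049, -0.081, -0.20, 0.26, -0.059, -0.0011, 0.28 and 0.14.

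Lists for 8 other cell types held 8 tested genes, and edgeR and DESeq2 called 0 of them. Below an unadjusted p of 0.05 edgeR and DESeq2 also had 0 of these. T and NK cell markers summed to 25.1, 14.9, 13.5 and 10.9 CPM in the monocytes, with 11, 11, 13 and 13 of 16 genes at 0 UMIs and Gzmb the most abundant. Platelet genes, which include Selp, summed to 3.58, 13.3, 13.5 and 10.9 CPM, and the 7 erythrocyte genes were all at 0. Tumor cell genes summed to 111, 131, 58.4 and 81.6 CPM, led by Cd24a, and B and plasma cell markers to 96.8, 53.1, 71.9 and 51.6 CPM, led by Ighm. Microglia markers summed to 2448, 3141, 2220 and 2333 CPM, of which Cst3, a protease inhibitor also made by monocytes, gave 2226, 2948, 2036 and 2186. They were lower in shSELP, as the C1q genes were, while P2ry12 and Tmem119 were at 0 by the rule. The part of microglial RNA in those genes was not tested. Neutrophil markers summed to 1169, 737, 1097 and 628 CPM, mostly Acod1, which activated monocytes also make, and dendritic cell genes to 229, 229, 283 and 190 CPM, led by Naaa.

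Cells with Ly6c2 under 5 per 10000 that met the other limits, except that no limit was set on Ccr2, were the comparison. Cells without a Ccr2 UMI could thus be among them. The interaction of cell type and group was tested in edgeR over 6187 genes, and 9 passed a Benjamini-Hochberg adjusted p of 0.05 (0.145%), 2 higher and 7 lower in monocytes. The 9 included Gm42418, which overlaps ribosomal RNA and was named after its values were seen, at 1230, 1138, 885 and 742 CPM in monocytes and 1356, 921, 1384 and 2536 in the Ly6c2-low cells, and its part was not tested. DESeq2 called 1, and edgeR called 22 with no filter, 17, 15, 29 and 37 without shNC 1, shNC 2, shSELP 1 and shSELP 2, and 0 with thinned cells (188 at an unadjusted p under 0.05). Apoe differed by -1.16 ± 0.141 (edgeR, Benjamini-Hochberg adjusted p = 9.56e-05), standing at 18061, 14774, 21039 and 17862 CPM in the Ly6c2-low cells. Its adjusted p was at most 0.00476 without each library in turn, 0.0648 in DESeq2 and 0.561 with thinned cells, where it differed by -0.68. Spp1 differed by -1.94 (edgeR, Benjamini-Hochberg adjusted p = 0.00794), which was 0.0533 without shNC 1, 0.234 in DESeq2, 0.0599 with thinned cells, 0.124 with Ly6c2 at 10 per 10000 or more and 0.785 with at least 2 UMIs of Ccr2, with differences of -4.22 in thinned cells and -0.90 at that Ccr2 limit. Ccl7, a ligand of CCR2, was at 75.3, 257, 121 and 40.8 CPM in monocytes and at 351, 380, 728 and 757 CPM in Ly6c2-low cells, where it rose by 1.01 (edgeR, Benjamini-Hochberg adjusted p = 0.00831). The difference of its responses was -2.22 (edgeR, Benjamini-Hochberg adjusted p = 0.0195), which was 0.887 without shNC 2, 0.944 with thinned cells and 0.206 with the stricter Ly6c2 limit, and DESeq2 did not call it. The difference was -1.06 without shNC 2, -1.45 without shSELP 2, -0.34 with thinned cells and -9.93 with the stricter Ccr2 limit.

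The CD11b-positive libraries gave the same measure in cells that had not chosen these genes, at a later day by the labels and with another isolation. Of the 10 genes called in the mix, 8 had at least 50 UMIs there, and 7 of them (87.5%) lay on the same side of 1, beside 53.1% of 1913 genes tested in both. Ccl5 was at 884 CPM in shNC and 2058 in shSELP, a ratio of 2.33 (95% counting interval 2.04 to 2.66), and Spp1 at 211 and 92.8 CPM, a ratio of 0.439 (0.284 to 0.666). Apoe had a ratio of 0.761 (0.726 to 0.798), C1qb 0.729 (0.642 to 0.828) and C1qc 0.806 (0.685 to 0.947). The intervals of Rgs1, at 0.850 (0.650 to 1.11), and Cd72, at 0.931 (0.603 to 1.44), included 1. Ptgs2 went the other way, at 423 CPM in shNC and 630 in shSELP, a ratio of 1.49 (1.21 to 1.84). Ttr had 0 UMIs in both libraries. Areg, under the limit of 50 UMIs and left out of the 8, had 19 UMIs in shNC and 4 in shSELP. They came from 5 and 2 cells, and the ratio of 0.209 (0.0518 to 0.630) was lower, as in the mix. Over all cells of the same libraries Ccl5 was at 1044 and 1873 CPM, C1qb at 5521 and 4304 and C1qc at 3541 and 3067, on the same side as in the monocytes, as were Cd72 at 398 and 295 and Rgs1 at 944 and 511. Apoe was at 26150 and 25740 CPM there and Spp1 at 1398 and 1422. The part of these library-wide levels was not tested. Of 16 macrophage maturation genes with at least 100 UMIs, 3 were past a fold of 1.5 downward, against 7.05% of 1022 genes, and 2 upward, against 8.41%, with a median log2 ratio of -0.28 beside -0.028 over those genes. With 1 library a group, none of these ratios has a replicate check.

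Among 1022 genes with at least 100 UMIs over both CD11b-positive libraries, 158 (15.5%) had a ratio of at least 1.5 or at most the inverse, 86 higher (8.41%) and 72 lower (7.05%) in shSELP. With TMM size factors the split was 53 higher and 134 lower, since that scaling shifted all log2 ratios by -0.13, which turned the sign of no list median given for these libraries. The count past the fold was 391 of 1913 genes with at least 50 UMIs, 253 higher and 138 lower. With at least 2 UMIs of Ccr2 it was 105 of 515 genes, 54 higher and 51 lower. Directions given for these libraries are therefore relative to total UMIs. More shSELP than shNC monocytes lay near the limit on Lyz2 there, and the part of that edge, and of cells with a lone Ccr2 UMI, in the ratios was not tested beyond the stricter Ccr2 limit.

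Guanylate-binding proteins, induced by interferon gamma, gave 3 of the 8 highest ratios. Gbp2, of cell-autonomous defense, was at 302 CPM in shNC and 991 in shSELP, a ratio of 3.28 (2.64 to 4.10). Gbp7 and Gbp3 of the same family had ratios of 2.93 (1.96 to 4.45) and 2.66 (1.78 to 4.07), and 3 of 4 GTPases of the list with enough UMIs were past the fold, against 8.41% of all genes, with a median log2 ratio of 1.48 beside -0.028 over all genes. Cxcl10 and B2m, which interferon gamma also induces, had ratios of 0.824 (0.748 to 0.907) and 1.03 (0.953 to 1.11). Cxcl9, a ligand of the same receptor as Cxcl10, averaged 2.10 UMIs a thinned monocyte in shNC and 4.85 in shSELP. It was seen in 39.4 and 58.5% of these cells. H2-K1 and H2-D1 of MHC class I had ratios of 1.31 (1.19 to 1.44) and 0.937 (0.842 to 1.04). The part of interferon gamma was not tested. In the mix Gbp2 was at 739, 868, 1056 and 1212 CPM and was not called. Il1rn, the interleukin-1 receptor antagonist, was at 263 and 813 CPM, a ratio of 3.09 (2.45 to 3.93). Nampt, an enzyme of NAD synthesis, had a ratio of 2.98 (2.22 to 4.07), Ccl7 2.80 (1.90 to 4.19), Rnf213, a large ubiquitin ligase, 3.07 (2.18 to 4.40) and Pdia6, a protein disulfide isomerase, 2.77 (2.00 to 3.89). Of 5 heat-shock chaperones 4 were past the fold upward, against 8.41% of all genes, with a median of 1.03, and Hsp90ab1, a cytosolic chaperone, was at 1013 and 2069 CPM. Of 30 type I interferon genes 7 were past the fold upward and 0 downward, against 8.41% and 7.05% of all genes. Their median was 0.33 beside -0.028 over all genes. Gm42418, a transcript that overlaps ribosomal RNA and was singled out after its values were seen, was at 35459 CPM in shNC and 70688 in shSELP, a ratio of 1.99 (1.95 to 2.04). Its part in the ratios of these libraries, higher or lower, was not tested.

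Classical monocyte genes were among the lower ones in CD11b-positive cells. Of 17 with enough UMIs, 7 were past the fold downward and 0 upward, against 7.05% of all genes downward, with a median log2 ratio of -0.42. Chil3 was at 2788 CPM in shNC and 1580 in shSELP, a ratio of 0.567 (0.511 to 0.628), Ifitm6 had a ratio of 0.452 (0.294 to 0.683) and Hp, which encodes haptoglobin, 0.378 (0.271 to 0.521). Plac8 stayed nearer to 1, at 0.881 (0.808 to 0.959). S100a4 was at 1926 and 972 CPM and S100a6 at 2620 and 1616 CPM, whereas in the mix both stood higher in each shSELP library without being called, at 1506, 1369, 1627 and 1857 CPM for S100a6. Its log2 change there turned to -0.19 with thinned cells and -0.014 with Ly6c2 at 10 per 10000 or more. Cebpb, a transcription factor of myeloid differentiation, was at 2406 and 1081 CPM, a ratio of 0.449 (0.398 to 0.506). Ccl6 had a ratio of 0.394 (0.299 to 0.514), Mt1, a metallothionein, 0.393 (0.294 to 0.521), Cytip, which regulates integrin adhesion, 0.437 (0.331 to 0.572) and Ndel1, of dynein-driven transport, 0.385 (0.254 to 0.571). None of these 4 genes was called in the mix. Cytip stood the other way there, at 491, 475, 674 and 680 CPM (log2 change 0.48), and so did Ndel1, at 194, 156, 220 and 204 CPM. Mt1 stood lower in both shSELP libraries, at 706, 504, 431 and 310 CPM, and the groups overlapped in Ccl6.

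**Figure D2:**
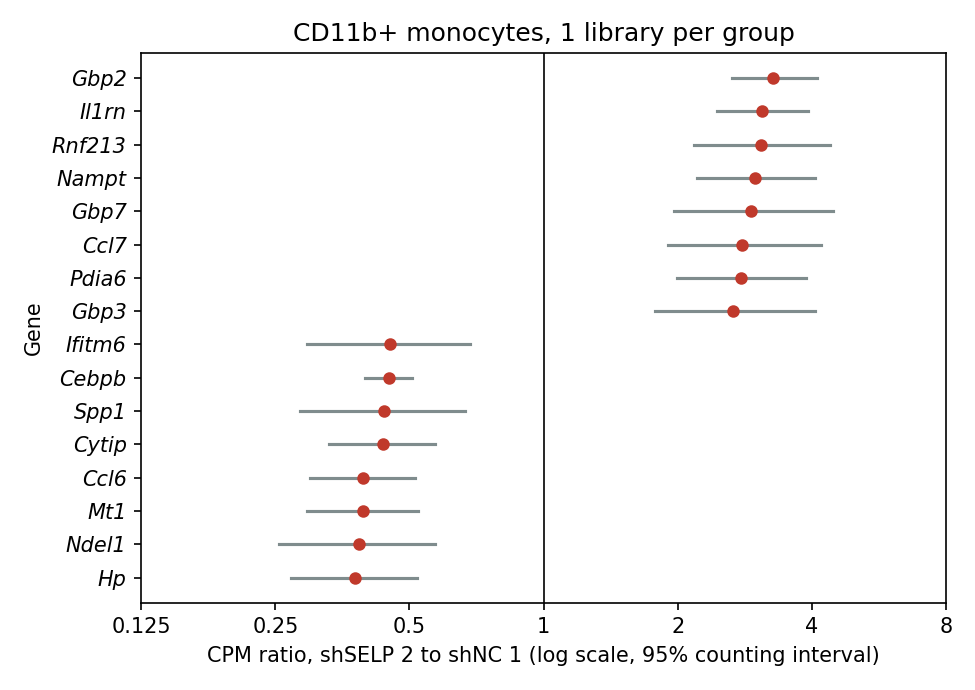
Ratio of CPM in CD11b-positive monocytes of shSELP to those of shNC on a log scale, for the 8 genes with the highest and 8 with the lowest ratios, with lines for 95% counting intervals. Gbp2 stands highest at 3.28 and Hp lowest at 0.378. Genes were chosen with at least 100 UMIs and an interval that excludes 1, so no interval shown could reach 1. There was 1 library a group and no replicate check.

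Chemokines, Apoe, Il1b, the ferritin chain Fth1 and genes of antigen presentation were among those with the highest variance over the mean from monocyte to monocyte. This measure was not adjusted for the level of a gene. In cells thinned to 2000 UMIs, the variance over the mean (Fano factor, near 1 for counting noise alone) was 21.0, 21.4, 14.7 and 17.3 for Apoe in shNC 1, shNC 2, shSELP 1 and shSELP 2 of the mix, and 31.9 and 29.4 in the CD11b-positive libraries. Cxcl10, a ligand of CXCR3 on T cells, had 13.1, 21.1, 30.0 and 23.7 in the mix, and Cxcl9, of the same receptor, 8.80 to 22.2. Fth1 had 17.4, 11.5, 21.3 and 11.9 in the mix, Il1b 15.1, 14.8, 9.83 and 17.0, and Actb 9.89, 8.40, 7.36 and 19.5. Mean levels differed widely, at 60.0 UMIs a thinned cell for Fth1 and 2.78 for Chil3 in shNC 1. The ranks therefore do not compare variation relative to level. Chil3 had 4.99, 16.6, 5.24 and 12.3 in the mix and 18.0 and 12.1 in the CD11b-positive libraries. Cd74, the invariant chain of MHC class II, was seen in 75.7 to 88.6% of thinned monocytes of the mix and 16.1 to 22.7% of T cells. C1qa was seen in 41.5, 45.1, 28.6 and 32.4% of monocytes of the mix and 5.13 to 9.95% of T cells, and before thinning in 26, 43, 11 and 17 of the 42, 83, 37 and 37 monocytes. Apoe was seen in 100, 93.9, 77.1 and 78.4% of thinned monocytes and 14.9 to 26.5% of T cells, and before thinning in 42, 78, 33 and 35 monocytes. Some monocytes thus carried C1q transcripts and others of the same library carried none at this depth. Cxcl2, Ccl5, C1qb, Plac8, H2-Aa, H2-Ab1, H2-Eb1, Tmsb4x, Malat1 and AA467197 were also among the 40 highest Fano factors in every library. Genes used by the rule were left out, of which Ly6c2 ranked 19 to 40.

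C1qa, C1qb and C1qc lie side by side on the minus strand of chromosome 4, from the start of C1qb at 136880129 to the end of C1qa at 136898803 in GRCm38. Because these neighbors stood lower together in both shSELP libraries of the mix, the RefSeq promoters of the 2 found in the table, C1qb and C1qc, are printed 5′ to 3′, each 300 bases around the gene start, in build GRCm38.p6 and on the minus strand. Capitals mark GAGGAA, a core bound by the myeloid factor PU.1, searched on both strands with the reverse complement TTCCTC. It was found once in each, on the gene's strand in C1qb and on the other strand in C1qc, and in 28.3% of all 32851 promoters of this length, so the match is a description only.
C1qb promoter, chr4:136886151-136886450: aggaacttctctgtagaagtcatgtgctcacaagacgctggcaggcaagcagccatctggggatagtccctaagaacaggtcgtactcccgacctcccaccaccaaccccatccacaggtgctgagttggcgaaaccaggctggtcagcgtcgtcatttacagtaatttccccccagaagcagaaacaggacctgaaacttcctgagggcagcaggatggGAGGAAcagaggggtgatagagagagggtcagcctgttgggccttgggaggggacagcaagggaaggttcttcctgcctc
C1qc promoter, chr4:136892865-136893164: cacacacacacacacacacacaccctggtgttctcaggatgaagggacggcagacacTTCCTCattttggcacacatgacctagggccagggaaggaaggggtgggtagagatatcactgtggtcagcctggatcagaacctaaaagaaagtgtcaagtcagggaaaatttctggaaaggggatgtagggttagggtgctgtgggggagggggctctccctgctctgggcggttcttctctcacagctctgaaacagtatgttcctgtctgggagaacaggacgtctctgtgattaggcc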

How the data were processed

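The authors aligned reads to mm10 and deposited UMI counts per gene and cell for each experiment (Cell Ranger 1.3, by the submitters' processing notes). The 48 sample entries are lanes of 6 libraries (8 entries each), and both tables were analysed apart. Cells with at least 500 genes were kept, and no cell exceeded the 10% mitochondrial limit (highest 5.00%). The members, 29 gene lists and named genes were chosen with earlier results of these data known. Counts were summed per library. The mix was tested by the quasi-likelihood method of edgeR 4.0.16 after filterByExpr and TMM scaling, with Benjamini-Hochberg adjustment. DESeq2 1.42.0 was an alternative. CD11b-positive libraries, 1 a group, gave CPM ratios with exact conditional binomial intervals. Genes named were the label's markers, the 10 largest calls a direction at 50 CPM (or smallest p) and up to 4 called or 2 abundant members a list. Also named were 8 CD11b-positive ratios a direction, among genes whose counting interval excluded 1. The last were genes among the 40 highest Fano factors in every library. Scrublet marked 18, 9, 24 and 22 cells of the mix and 1 and 0 of the CD11b-positive libraries, where it did not work, and no monocyte. The T cell class (at least 2 Cd3 UMIs, at most 1 of Lyz2) was added after the data were seen. A further limit of the rule for monocytes, comparisons with another class of cells and 1 gene of a list are not reported here.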

Additional observations from a re-analysis of the deposited data

Results flagged for a closer look

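The response to shSELP differed between monocytes and Ly6c2-low cells of the mix in 9 genes, by the interaction term in edgeR with Benjamini-Hochberg adjustment. Among the named genes, the difference of the log2 responses was positive for Cxcl3 (4.35) and Cxcl10 (1.03). For Cxcl10 it turned to -1.30 with thinned cells and -0.21 with Ly6c2 at 10 per 10000 or more, and its call was lost there, without shNC 1 (edgeR, Benjamini-Hochberg adjusted p = 0.311) and in DESeq2 (0.955). For Cxcl3 it was 6.39 without shNC 1, 2.67 without shNC 2 and 1.79 with thinned cells (edgeR, Benjamini-Hochberg adjusted p = 0.816), and DESeq2 did not call it. In the monocytes of shNC 1, shNC 2, shSELP 1 and shSELP 2, Cxcl3 had 30, 9, 47 and 52 UMIs from 7, 7, 10 and 8 cells, of which the highest cell gave 60.0, 22.2, 42.6 and 38.5%. The difference was negative for Ccl7 (-2.22), Spp1 (-1.94) and Apoe (-1.16). Log2 changes in monocytes and Ly6c2-low cells were 1.82 and -2.49 for Cxcl3, 0.13 and -0.84 for Cxcl10 and -1.31 and 1.01 for Ccl7. For Spp1 they were -2.14 and -0.32, and for Apoe -0.94 and 0.23. In CD11b-positive monocytes the ratio was 0.0249 for Cxcl3, from 40 and 1 UMIs, 0.824 for Cxcl10 and 2.80 for Ccl7. Spp1, at 0.439, and Apoe, at 0.761, were lower there. Ptgs2 was lower in both shSELP libraries of the mix and higher in the shSELP library of CD11b-positive monocytes, with a ratio of 1.49, and that difference between experiments was not tested.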

How the results depend on the processing

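The count of 10 called monocyte genes moved to 3 with DESeq2, 24 with no filter on low counts and 0 with cells thinned to 2000 UMIs, Ly6c2 at 10 per 10000 or more, or at least 2 UMIs of Ccr2, and ranged from 0 to 39 without each library in turn. With the replicate number as a block it was 29. Deviations of same-numbered libraries from their groups had a correlation across genes of -0.0404. With 2 libraries a group, that value cannot settle if the numbers pair them. Against Ly6c2-low cells the count of 9 moved to 1 with DESeq2, 22 with no filter and 0 with thinned cells, and ranged from 15 to 37 without each library. In CD11b-positive cells, 105 of 515 genes were past the fold with at least 2 UMIs of Ccr2 and 391 of 1913 at 50 UMIs. The main setting had 158 of 1022. The share difference of 1.07 points turned to -0.727 with thinned cells. The cause was not tested, and thinning before the rule also changed which cells passed it.

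Over 83 genes named, 984 values were recomputed in the mix. The 10 called genes kept their sign in each, and lost their call in 51 values, while 31 values of 12 other genes passed the threshold. Of the genes not called, 40 turned sign in 98 values. The log2 change with thinned cells was B2m 0.13, Cd74 0.14, Chil3 -0.078, Clec4d -0.10, Clec4e -0.54, Cxcl10 -1.40, Cxcl9 -0.0072, Ftl1 0.10, H2-Aa -0.081, H2-Ab1 0.012, Hp -0.81, Hspa8 -0.051, Il1b 0.059, Il1rn -0.089, Klf6 -0.24, Nampt 0.25, Ndel1 -0.15, Pdia6 0.057, Pim1 -0.14, S100a6 -0.19 and Zeb2 -0.092. With the stricter Ly6c2 limit, it was Cd74 0.28, Cxcl10 -0.96, H2-Ab1 0.22, H2-Eb1 0.19, Il1b 0.052, Lgals3 -0.067, Naaa -0.020 and S100a6 -0.014. With the stricter Ccr2 limit, it was Acod1 0.18, Clec4d -0.0043, H2-Aa -0.063, Ighm -0.50, Il1b 0.011, Lgals3 -0.060, Naaa -0.16, Nampt 0.18 and Tnip3 0.092. With no filter, it was H2-Aa -0.0098, Ighm -0.021, Naaa -0.018, Pim1 -0.023 and Pkm -0.0055. With DESeq2, it was Naaa -0.020. With the replicate block, it was H2-Aa -0.031 and Ighm -0.022. Without each library in turn it ranged over Acod1 -0.65 to 0.33, Ccl6 -0.41 to 0.15, Ccr1 -0.11 to 0.32, Cd44 -0.31 to 0.17, Cd74 -0.30 to 0.18, Cebpb -0.19 to 0.022, Chil3 -0.043 to 0.59, Clec4d -0.31 to 0.36, Clec4e -0.14 to 0.33, Csf3r -0.47 to 0.53, Cxcl10 -0.20 to 0.57, Cxcl2 -0.28 to 0.048, Cxcl9 -0.084 to 0.69, Ftl1 -0.36 to 0.047, H2-Aa -0.43 to 0.32, H2-Ab1 -0.44 to 0.19, H2-D1 -0.078 to 0.22, H2-Eb1 -0.67 to 0.27, Hp -0.17 to 0.88, Ifitm6 -0.40 to 0.23, Ighm -0.34 to 0.38, Il1rn -0.011 to 0.24, Lgals3 -0.087 to 0.18, Ly6e -0.043 to 0.19, Naaa -0.25 to 0.19, Nampt -0.26 to 0.18, Pdia6 -0.27 to 0.050, Pim1 -0.079 to 0.074, Pkm -0.059 to 0.087, Rnf213 -0.20 to 0.29, Tgfbi -0.071 to 0.19, Tmsb4x -0.18 to 0.021 and Zeb2 -0.089 to 0.19. The causes were not tested. Leaving out 1 library left 1 in that group, assumed to vary like the others. No cell exceeded the mitochondrial limit and Scrublet marked no monocyte, so these settings repeated the main monocyte values by construction. Those repeats are among the 984 values. With Scrublet calls left out, the interaction count against Ly6c2-low cells moved from 9 to 11. Each count stayed within 1.5 times under both settings, and genes near 50 CPM rest on few UMIs.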
